A study of Neurospora crassa with 10 samples.

Results

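The genes described here are 8 loci of *Neurospora crassa* with known roles in sexual development or mating, out of 9728 genes measured. The list was set by locus number and not by a threshold on a measured value, but earlier results of these data were known when it was chosen. They encode the transcription factors SUB-1 (*sub-1*, NCU01154), ADV-1 (*adv-1*, NCU07392), ASM-1 (*Asm-1*, NCU01414), FMF-1 (*fmf-1*, NCU09387), and FSD-1 (*fsd-1*, NCU09915), the pheromone receptors PRE-1 (*pre-1*, NCU00138) and PRE-2 (*pre-2*, NCU05758), and the precursor of a peptide pheromone (*ccg-4*, NCU02500). All 8 were found in the table of each sample. Of these, 6 had a mean FPKM above 1 at 1 or more time points and were tested, whereas *pre-1* and *pre-2* did not pass this filter.

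The samples were mycelium of the wild-type (WT) strain FGSC2489, a laboratory strain of mating type A, grown for 24 hr in the dark in shaken liquid Bird's medium at 25° and then exposed to white light of 1200 lux. Cultures were harvested after 15, 60, 120, or 240 min of light, and dark cultures were harvested at time 0. There were 2 replicates at each of the 5 time points, 10 samples in all, and the time in light was the only treatment. Oligo-dT cellulose was used to isolate the poly(A) RNA of replicate 1, and magnetic beads that of replicate 2, so a difference between the replicates cannot be told apart from a difference between these methods or in depth. Expression was given as FPKM, fragments scaled to the length of the transcript and to the mapped fragments of the library.

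*N. crassa* is heterothallic, and a cross needs 1 parent of each mating type. A nitrogen-starved mycelium forms female structures, the protoperithecia, from which receptive hyphae (trichogynes) grow toward a cell of the opposite mating type along a gradient of its peptide pheromone. A mat A strain makes the pheromone encoded by *ccg-4*, which is sensed through PRE-2 of the opposite mating type, whereas PRE-1 of the mat A strain senses the pheromone of mat a cells. The receptors act through a G protein and a mitogen-activated protein (MAP) kinase cascade, and transcription factors then direct the growth of the fruiting body and the maturation of ascospores. Light is sensed by the White Collar Complex and affects protoperithecia as well as asexual spores (conidia) and carotenoids. The question put to these genes was which of them changed in level after the light was turned on, at which time, and for how long.

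Light time points were tested against the dark by limma on log2(FPKM + 1), and p-values were adjusted over 7688 genes and 4 comparisons with a threshold of 0.2. Fold changes are on this scale, on which the change of a gene with low FPKM is understated. The light response itself was present in the samples, since *al-1*, a carotenoid biosynthesis gene, had FPKM of 1261 and 999 at 15 min, against 4.07 and 1.25 in the dark. The photoreceptor gene *vvd* had 537 and 293 at 15 min, against 4.52 and 2.18 in the dark. The 240 min replicates stood apart, because 3451 tested genes differed at least 2-fold between them, against 415 to 610 genes at the other time points. Values of low genes were whole multiples of a smallest step in each sample, and this step, the FPKM worth of 1 read, was 3.10 to 3.54 times as large in replicate 2 as in replicate 1 from the dark to 120 min and 6.02 times as large at 240 min. Replicate 2 therefore carries the larger counting error, most of all at 240 min. Tests were run both ways, with no block and with a block for replicate number. The 240 min samples entered the errors at all time points, and without them the SE at 15 min was smaller for 5 of the 6 tested genes (0.19 against 0.36 for *sub-1*) and not for *ccg-4* (0.67 against 0.66).

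The cultures were labelled as mycelium, and of 4 fruiting body markers, *app* and *per-1* stayed at or below FPKM 0.169 in all 10 samples. The other 2, *asd-1* and *poi-2*, were expressed. The 4 together summed to FPKM of 43.3 and 32.6 in the dark and 28.3 and 23.7 at 15 min. They summed to 89.6 and 65.6 at 60 min, 69.7 and 57.4 at 120 min, and 61.0 and 26.1 at 240 min. Most of each sum was *asd-1*, with FPKM of 40.5 and 30.4 in the dark and 23.5 and 18.8 at 15 min. *poi-2* went the other way at 15 min, with 4.52 and 4.79, against 2.74 and 2.06 in the dark. Of 4 conidiation markers (*con-6*, *con-10*, *eas*, and *fl*), the test with no block called all 4 raised at 15 min and 3 at 60 and 120 min. Of all tested genes, 1.34%, 2.68%, and 1.37% were called raised at these times. With the block *fl* was also called raised at 60 and 120 min (limma adjusted p = 0.14 and 0.12), as were 14.4% and 11.6% of all tested genes. The 4 conidiation markers summed to FPKM of 88.0 and 54.8 in the dark and 717 and 979.6 at 15 min. They summed to 3927 and 4392.5 at 60 min, 2497 and 1657 at 120 min, and 192 and 95.8 at 240 min. None of the 4 was listed at 0 in any sample. Most of the sum at 60 min was *con-6*, with FPKM of 3408 and 3456. In the RefSeq annotation of assembly NC12 *con-6* overlaps NCU08768, so their reads may be mixed. The part of this asexual program in the changes below was not tested. In samples of a whole culture, fewer cells of a type and less RNA per cell cannot be told apart.

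**Figure D1:**
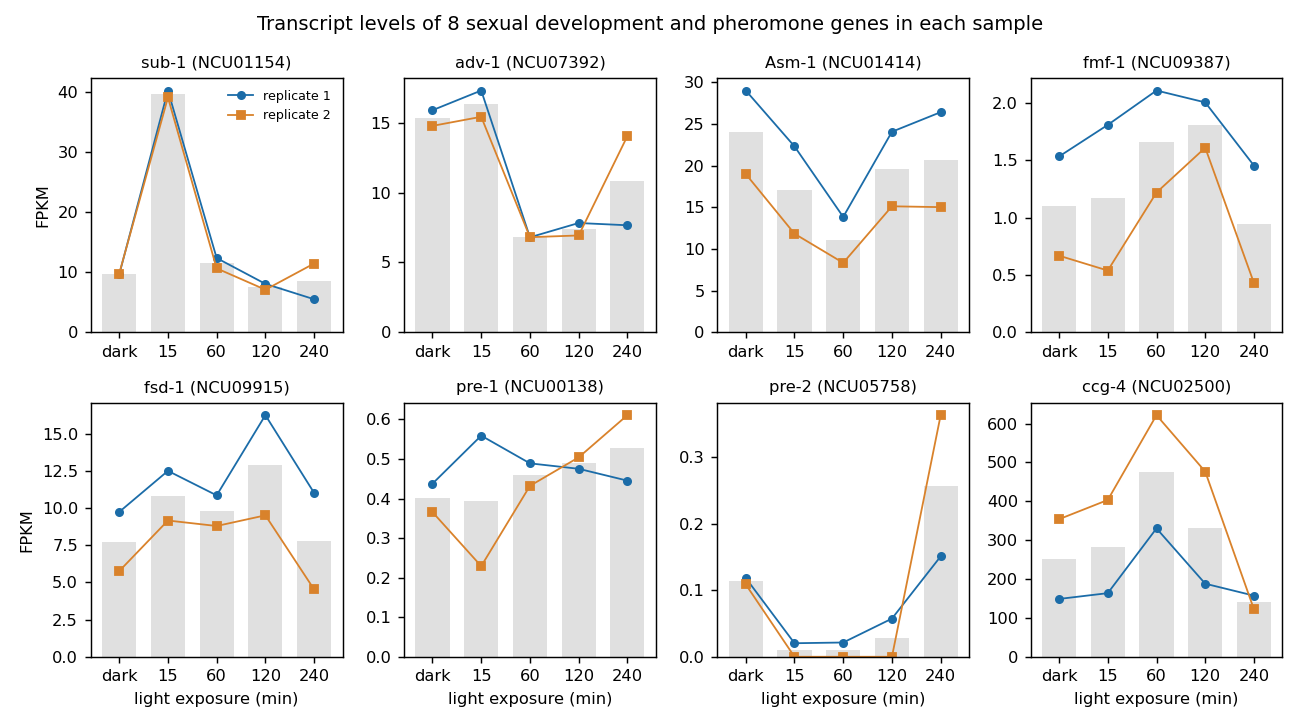
FPKM (y axis, linear, from 0, scaled for each gene) of the 8 genes in each of the 10 samples against time in light (x axis, categories). Circles are replicate 1, squares are replicate 2, and bars are the mean of the 2. *sub-1* peaked at 15 min in both replicates, with FPKM of 40.3 and 39.1, and *ccg-4* at 60 min, with 330.4 and 622.

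Among the transcription factor genes, *sub-1* gave the largest change of all 6 tested genes. SUB-1 is a GATA factor whose loss leaves protoperithecia submerged in the agar, and its gene is known as an early target of the White Collar Complex. The transcript had FPKM of 40.3 and 39.1 at 15 min, against 9.62 and 9.75 in the dark. The 2 samples at 15 min stood apart from all 8 others, the highest of which was 12.4. The log2 fold change was 1.93 (SE 0.36, limma adjusted p = 0.082), which is a 3.81-fold rise. In FPKM without the added 1, the replicates were at 4.19 and 4.01 times their own dark sample. Only 81 of the 7688 genes tested had a larger log2 fold change at 15 min.

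The rise of *sub-1* was short. FPKM was 12.4 and 10.64 at 60 min, 8.05 and 7.08 at 120 min, and 5.49 and 11.4 at 240 min. None of these passed the test against the dark, with log2 fold changes of 0.22, -0.32, and -0.25 (SE 0.36 each, limma adjusted p from 0.84 to 0.91). From 15 to 60 min the log2 change was -1.71 (SE 0.36, limma adjusted p = 0.45). No gene passed the threshold between successive light time points in this fit, and with the replicate block this drop of *sub-1* passed it (adjusted p = 0.072). With no block, this drop also passed without the 240 min samples (limma adjusted p = 0.013). The call at 15 min was lost when any 1 of the 8 samples from the dark to 120 min was left out (adjusted p from 0.23 to 0.62). It was kept without either sample of 240 min and without both.

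*adv-1* encodes a zinc cluster transcription factor needed for fusion between cells and for sexual development. At 15 min it had FPKM of 17.3 and 15.4, against 15.9 and 14.8 in the dark (log2 fold change 0.09, SE 0.34, limma adjusted p = 0.98). At 60 min it was 6.80 in both replicates, and at 120 min 7.82 and 6.93, so that all 4 samples were below all 4 samples of the dark and 15 min. The log2 fold change was -1.07 at 60 min (SE 0.34) and -0.97 at 120 min (SE 0.34). The limma adjusted p was 0.25 and 0.29, short of the threshold, and with the replicate block both passed it (0.066 and 0.082).

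Without the 240 min samples the drop of *adv-1* also passed without the block (limma adjusted p = 0.017 at 60 min and 0.024 at 120 min), in a fit that called 34.9% of all genes at 60 min and 32.3% at 120 min. At 240 min the replicates of *adv-1* parted, with FPKM of 7.66 in replicate 1, near its level at 60 and 120 min, and 14.0 in replicate 2, near its dark level. Without replicate 2 of 240 min, *adv-1* (log2 fold change -0.92) and *sub-1* (-0.72) were both called lowered at 240 min, as were 11.6% of all genes, with the 1 sample left assumed to vary like the other time points. Without replicate 1 instead, the values were -0.12 for *adv-1* and 0.22 for *sub-1*, and neither was called. From 15 to 60 min *adv-1* changed by -1.15 on the log2 scale (SE 0.34, limma adjusted p = 0.51), which passed with the block (0.099) and, with no block, without the 240 min samples (0.038).

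*Asm-1* encodes a factor with an APSES DNA-binding domain that is needed for protoperithecia and for the maturation of ascospores. It was lowest at 60 min in both replicates. FPKM was 29.0 and 19.0 in the dark, 22.3 and 11.8 at 15 min, 13.8 and 8.32 at 60 min, 24.1 and 15.1 at 120 min, and 26.4 and 15.0 at 240 min. Replicate 2 was below replicate 1 at all 5 time points, with a ratio between 0.53 and 0.65, and this offset made the ranges of most time points overlap. The range at 60 min lay below that of the dark.

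At 60 min *Asm-1* was at 0.477 and 0.438 of the dark level within its replicate. The log2 fold change at 60 min was -1.06 (SE 0.48, limma adjusted p = 0.44), and with the replicate block the SE was 0.17 and the adjusted p 0.022. Without the 240 min samples it passed with no block as well (limma adjusted p = 0.16). At 15 min it was -0.50 (limma adjusted p = 0.79, and 0.12 with the block). The block also placed the drop from 15 to 60 min (-0.56, adjusted p = 0.15) and the return from 60 to 120 min (0.77, adjusted p = 0.090) past the threshold, and neither passed without it (limma adjusted p = 0.89 and 0.79). At 120 and 240 min *Asm-1* passed the test against the dark in neither fit, with log2 fold changes of -0.29 and -0.23.

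**Figure D2:**
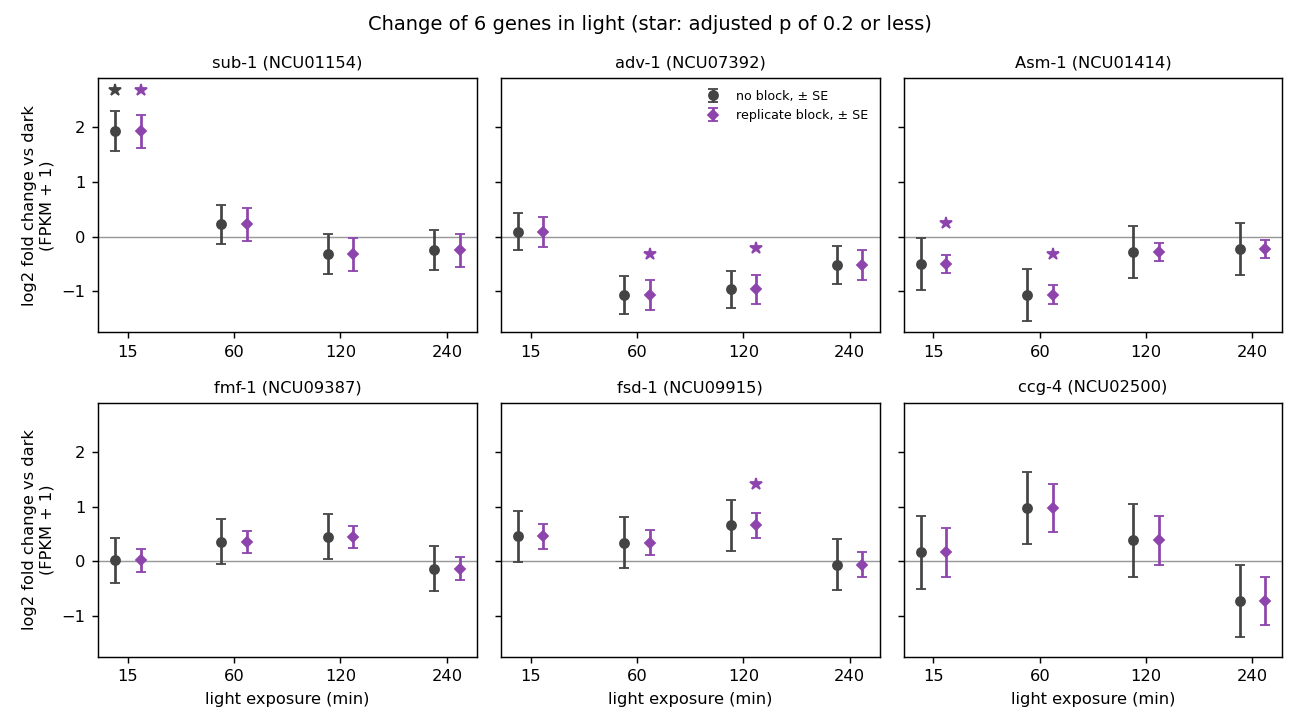
Log2 fold change of FPKM + 1 against the dark (y axis) of the 6 tested genes by time in light (x axis, categories). Circles with bars are the estimate ± SE without a block, diamonds the same with a block for replicate number, and a star marks an adjusted p of 0.2 or less. *sub-1* at 15 min (1.93) has a star in both fits, and the stars of *adv-1*, *Asm-1*, and *fsd-1* are in the blocked fit only.

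*fsd-1* encodes a regulator related to Ndt80, the meiotic transcription factor of budding yeast, and is needed for the timing and development of female structures. FPKM was 9.74 and 5.77 in the dark, 12.5 and 9.17 at 15 min, 10.9 and 8.80 at 60 min, 16.3 and 9.52 at 120 min, and 11.0 and 4.53 at 240 min. Both replicates were above their own dark sample at 15, 60, and 120 min, and at 120 min by 1.67-fold and 1.65-fold. The log2 fold change at 120 min was 0.66 (SE 0.47, limma adjusted p = 0.67), and only the blocked fit called it (SE 0.23, adjusted p = 0.14). From 120 to 240 min it changed by -0.72 (limma adjusted p = 0.81, and 0.16 with the block). In the RefSeq annotation of assembly NC12 *fsd-1* overlaps NCU09917, and the library kit does not keep the strand, so that their reads may be mixed.

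*fmf-1* encodes a protein with an HMG-box domain that is needed for fertility of both the male and the female parent. It was the lowest of the tested factors. FPKM was 1.53 and 0.668 in the dark, 1.81 and 0.538 at 15 min, 2.11 and 1.22 at 60 min, 2.01 and 1.61 at 120 min, and 1.45 and 0.429 at 240 min. The values of replicate 2 rest on few reads, because the steps gave 13, 9, 17, 28, and 5 reads in these samples in the order of time, against 96, 94, 104, 111, and 102 in replicate 1. No light time point passed the test against the dark in either fit (log2 fold change between -0.13 and 0.45, SE 0.41, limma adjusted p from 0.78 to 1.00). The change from 120 to 240 min was -0.58 (limma adjusted p = 0.84) and passed only with the block (0.19), where replicate 2 rests on 28 and 5 reads.

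The receptor genes were low in all samples. PRE-1 and PRE-2 are G protein-coupled receptors of the pheromone response, and neither gene exceeded FPKM 1 in any of the 10 samples. *pre-1* ranged from 0.229 to 0.611, and its steps gave 44 to 57 reads in the samples of replicate 1 and 7 to 16 in those of replicate 2. At 15 min it was at 1.28 times its dark level in replicate 1 and 0.626 times in replicate 2, and at 60, 120, and 240 min between 1.02 and 1.67 times in both. Its range at 60 min overlapped that of the dark, and those at 120 and 240 min lay above it. In the fit without a filter on low values, the log2 fold change of *pre-1* against the dark was between -0.02 and 0.12 (SE 0.12).

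*pre-2* was still lower. It had FPKM of 0.0204 and 0 at 15 min, 0.0215 and 0 at 60 min, 0.0574 and 0 at 120 min, and 0.151 and 0.363 at 240 min, against 0.118 and 0.109 in the dark. In reads, these were 1 and 0 at 15 min, 1 and 0 at 60 min, 3 and 0 at 120 min, and 10 and 4 at 240 min, against 7 and 2 in the dark. The samples from 15 to 120 min were below and those at 240 min above the dark samples. The higher values at 240 min rest on 10 and 4 reads, against 7 and 2, too few to tell a rise from counting error. With a library at 0 reads still allowing up to 3, replicate 2 could not have shown a drop below the 2 reads of its dark sample. In the fit without a filter, the log2 fold change was between -0.14 and 0.17 (SE 0.08) and no time point passed (limma adjusted p from 0.51 to 0.70).

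*ccg-4* was the most abundant of the 8 genes and ranked 312 among all genes in the dark by mean FPKM. It was first found as a clock-controlled gene and encodes the precursor of the mat A pheromone. FPKM was 149 and 354 in the dark, 164 and 404 at 15 min, 330.4 and 622 at 60 min, 188 and 477 at 120 min, and 157 and 122 at 240 min. Both replicates were highest at 60 min, at 2.22 and 1.76 times their own dark sample. Replicate 2 was 1.88 to 2.53 times replicate 1 up to 120 min and 0.78 times at 240 min, so that the order of the replicates turned round at the last time point.

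At 60 min the log2 fold change of *ccg-4* was 0.98 (SE 0.66, limma adjusted p = 0.65), and the ranges at 60 min and in the dark overlapped. With the block the adjusted p was 0.23, also short of the threshold. With the block and without the 240 min samples, a fit chosen after seeing the data, it was 1.4e-04, but that fit called all 6 genes and 79.0% of all genes tested at 60 min. At 240 min replicate 1 was at 1.06 times and replicate 2 at 0.35 times its own dark level, and the log2 fold change of -0.72 (SE 0.66) did not pass in either fit.

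**Figure D3:**
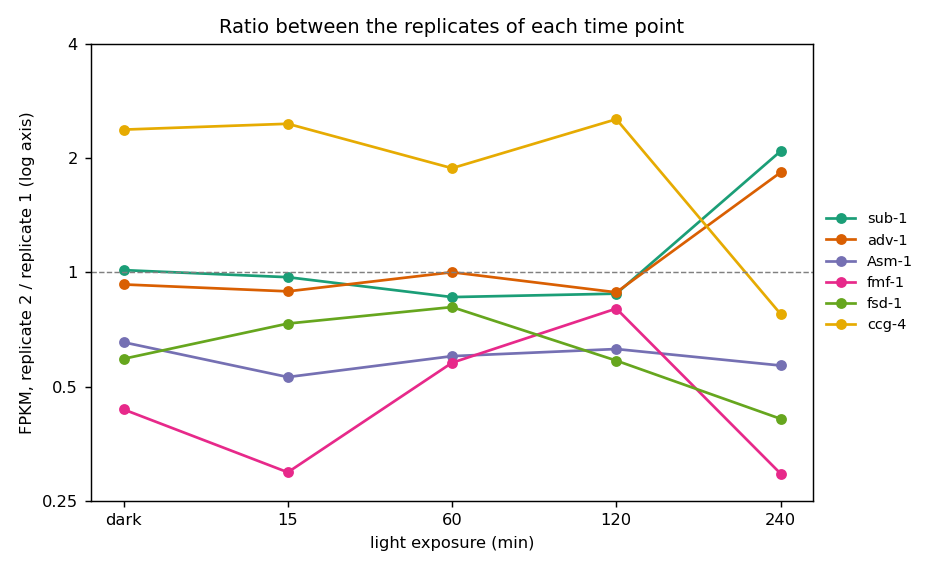
FPKM of replicate 2 divided by that of replicate 1 (y axis, log scale) for the 6 tested genes at each time point (x axis, categories). The dashed line marks equal values. Up to 120 min *Asm-1* stayed between 0.53 and 0.65 and *ccg-4* between 1.88 and 2.53, while at 240 min *sub-1* was at 2.09 and *ccg-4* at 0.78.

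The calls among the 6 genes were set beside those among all genes. At 15 min, 1 of the 6 was called, where 1.78% of all tested genes were, and at 60, 120, and 240 min 0 of 6 were called, where 6.23%, 4.96%, and 1.38% of all genes were. At any time point 1 of 6 was called, against 8.87% of all genes. With the replicate block 2 of 6 were called at 15 min, where 15.2% of all genes were, 2 at 60 min, where 36.5% were, 2 at 120 min, where 31.2% were, and 0 at 240 min, where 20.1% were. The blocked fit called 4 of the 6 at some time point, and 52.8% of all genes. By a rule without a test, a change of FPKM + 1 of at least 2-fold the same way in both replicates, *sub-1* was raised at 15 min, as were 2.98% of all genes, and *adv-1* and *Asm-1* were lowered at 60 min, as were 6.76%.

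Between successive light time points, 3 of the 6 genes (*sub-1*, *adv-1*, and *Asm-1*) were lowered from 15 to 60 min with the block, where 12.2% of all genes were. *Asm-1* was raised from 60 to 120 min, where 3.55% of all genes were, and *fmf-1* and *fsd-1* were lowered from 120 to 240 min, where 11.3% were. Without the block the counts were 0 for the 6 genes and for all 7688. Without the block and the 240 min samples, *sub-1* and *adv-1* were lowered from 15 to 60 min, where 5.82% of all genes were.

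In the dark the order of the levels by mean FPKM was *ccg-4* (251 ± 145), *Asm-1* (24.0 ± 7.09), *adv-1* (15.3 ± 0.79), *sub-1* (9.68 ± 0.09), *fsd-1* (7.75 ± 2.81), *fmf-1* (1.10 ± 0.61), *pre-1* (0.402 ± 0.051), and *pre-2* (0.114 ± 0.007; SD, n = 2 each). FPKM is already divided by transcript length, which allows a comparison between genes. However, the level of *fsd-1* may hold reads of the overlapping NCU09917. In the dark *pre-2* rests on 7 and 2 reads and *fmf-1* on 96 and 13. An SD of 2 values need not show the counting error of so few reads. At 15 min *sub-1* (39.7 ± 0.82) stood above *Asm-1* (17.1 ± 7.42) and *adv-1* (16.4 ± 1.33), and at 60 min its range overlapped that of *Asm-1* (11.5 ± 1.22 and 11.1 ± 3.90). Across its 5 time points the highest mean of *sub-1* was 5.25 times its lowest, compared with 3.41 times for *ccg-4*, 2.41 times for *adv-1*, 2.17 times for *Asm-1*, 1.92 times for *fmf-1*, and 1.66 times for *fsd-1*.

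Scaling each sample to its median raised the median log2 fold change of all genes by 0.18 at 60 min, 0.10 at 120 min, and 0.12 at 240 min. On that scale *sub-1* was at 1.98 at 15 min, and at 60 min *adv-1* was at -0.87, *Asm-1* at -0.85, and *ccg-4* at 1.20. Of the changes against the dark, the direction turned only for *fsd-1* at 240 min (-0.06 without scaling and 0.06 with it), which passed no test.

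The genes most like each factor in their profile were found by the correlation of log2(FPKM + 1) over all 10 samples among 3923 genes. The samples share replicate and depth, so these values are a description. For *sub-1* they were NCU00244 (r = 0.97), annotated as a glycosyl transferase, *csp-1* (r = 0.96), a repressor needed for the separation of conidia, and NCU01660 (r = 0.94). *csp-1* had a mean FPKM of 360.1 at 15 min and 55.8 at 60 min, against 40.9 in the dark. All 3 peaked at 15 min, which follows from their choice by likeness to *sub-1*.

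For *adv-1* the most alike were NCU00692 (r = 0.97), annotated as an Hsp70 chaperone, NCU05680 (r = 0.96), annotated as a mannosyltransferase, and NCU05826 (r = 0.96). NCU05680 had a mean FPKM of 40.7 at 15 min and 12.6 at 60 min, against 43.7 in the dark. A profile like that of *adv-1* follows from how it was chosen. For *Asm-1* they were *nuc-1* (r = 0.98), the regulator of phosphate acquisition, and NCU10015 and NCU12195, which share identical values in all samples (r = 0.97). *nuc-1* had a mean FPKM of 8.78 at 60 min, against 17.8 in the dark.

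For *fsd-1* the most alike were the chitin synthase gene *chs-5* (r = 0.99), NCU02826 (r = 0.98), annotated as a sodium/calcium exchanger, and NCU03312 (r = 0.97). For *fmf-1* they were NCU05349 (r = 0.96), NCU09629 (r = 0.94), and NCU01180 (r = 0.94), the last annotated as a ubiquitin hydrolase. For *ccg-4* they were NCU11871 (r = 0.98), NCU04098 (r = 0.98), annotated as a monothiol glutaredoxin, and NCU09612 (r = 0.97). Among the 15 pairs of tested genes r ranged from -0.76 (*Asm-1* and *ccg-4*, whose replicates lie in opposite order) to 0.83 (*fmf-1* and *fsd-1*).

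The wider pathway was described with 35 other genes of mating, pheromone signalling, sexual development, and meiosis, of which 26 passed the filter. The only call without the block was *dcl-1* at 60 min, raised by 1.52 on the log2 scale (SE 0.35, limma adjusted p = 0.14). However, *dcl-1*, a Dicer gene of RNA silencing, overlaps NCU08269 in assembly NC12 and has the same FPKM as this neighbor in every sample, so the change cannot be assigned to either. With the block 2 of 26 were raised and 3 lowered at 15 min, 4 and 4 at 60 min, 4 and 3 at 120 min, and 0 and 5 at 240 min. That fit raised 6.87% and lowered 8.32% of all tested genes at 15 min, 14.4% and 22.1% at 60 min, 11.6% and 19.5% at 120 min, and 5.11% and 15.0% at 240 min. Calls without the 240 min samples and with no block are also given below. Of all tested genes, 15.6%, 34.9%, and 32.3% were called in this way at 15, 60, and 120 min. The median log2 fold change of the 26 was 0.03, -0.27, 0.02, and -0.09 in the order of time, beside -0.05, -0.09, -0.07, and -0.14 for all tested genes.

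The mating-type gene *matA-1*, a regulator of mat A identity, had FPKM of 1.40 and 0.982 at 60 min, 1.81 and 0.40 at 120 min, and 1.90 and 0.358 at 240 min, against 3.88 and 2.39 in the dark. All 6 samples lay below both dark samples, and the blocked fit called it lowered at these 3 times (log2 fold change -0.90, -1.04, and -1.04, adjusted p from 0.051 to 0.072, and 0.46 to 0.53 without the block). With no block and the 240 min samples left out, it was called at 120 min (limma adjusted p = 0.16) and not at 60 min (0.22). The other 2 genes of this locus were at 0 to 2 reads in every sample.

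Downstream of the receptors, all 10 genes of the G protein and the MAP kinase cascade passed the filter. The cascade's MAP kinase gene *mak-2*, the most abundant of the 10, had FPKM of 65.7 and 54.8 at 60 min and 61.7 and 54.8 at 120 min, against 105 and 94.1 in the dark. With all samples it was called only by the blocked fit at 240 min (log2 fold change -1.32, adjusted p = 0.098, and 0.34 without the block), where its replicates were 70.1 and 21.8. Its drop at 60 and 120 min was called without the 240 min samples and with no block (limma adjusted p = 0.069 and 0.059). The MAP kinase kinase gene *mek-2* was lowered at 60 min with the block (-0.75, adjusted p = 0.063, and 0.40 without it, or 0.091 without it and without the 240 min samples). In assembly NC12 *mak-2* overlaps NCU02394 and *mek-2* overlaps NCU04613, so their reads may be mixed with those of these neighbors. NCU03894 (*stk-4*), annotated as a protein kinase, was raised at 120 min with the block (0.50, adjusted p = 0.19, and 0.73 without it).

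Of the 4 pheromone processing genes, NCU03637, annotated as a CaaX prenyl protease, was lowered at 240 min in the blocked fit (log2 fold change -0.54, adjusted p = 0.14, and 0.80 without the block) and the others were not called in either. The most abundant by its mean over all 10 samples was NCU00034 (44.1, against 39.4 for NCU03637, which was higher in the dark), annotated as a prenylcysteine methyltransferase, with FPKM of 59.2 and 60.2 at 60 min, against 28.0 and 36.7 in the dark (log2 fold change 0.88, limma adjusted p = 0.47). Its rise was called at 60 and 120 min without the 240 min samples (limma adjusted p = 0.050 and 0.073). NCU00034 overlaps NCU00035 in assembly NC12, so their reads may be mixed.

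Among genes of sexual development, *poi-2*, first found as a gene abundant in starved and sexual tissue, had FPKM of 21.7 and 20.3 at 60 min, 23.5 and 23.2 at 120 min, and 23.4 and 1.31 at 240 min, against 2.74 and 2.06 in the dark. The value of 1.31 rests on 8 reads, against 861 reads in replicate 1 at that time. These counts overstate the gap, because 1 read was worth 6.02 times as much FPKM in replicate 2. In FPKM, replicate 2 was at 0.056 times replicate 1. The log2 fold change was 2.70 at 60 min and 2.85 at 120 min (SE 0.87, limma adjusted p = 0.25 and 0.23), and the blocked fit called both (0.11 and 0.094). Both were also called without the 240 min samples and with no block (limma adjusted p = 0.0010 and 0.00081), as was 15 min (log2 fold change 0.74, adjusted p = 0.063). The cell fusion gene *so* was lowered at all 4 times with the block, most at 60 min (log2 fold change -0.96, adjusted p = 0.032, and 0.39 without the block). With no block and without the 240 min samples, *so* was called at 60 and 120 min (limma adjusted p = 0.12 and 0.18). *asd-1*, an ascus development gene, was lowered at 15 min (-0.71) and raised at 60 min (0.64) in the blocked fit (adjusted p = 0.068 and 0.085, against 0.53 and 0.59 without it, and 0.17 and 0.21 without it and without the 240 min samples), and was the most abundant gene of this list.

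Of the 6 genes of meiosis and meiotic silencing, 3 did not exceed FPKM 0.267 in any sample. The meiotic mismatch repair homolog *msh4* had FPKM of 0.724 and 0.572 at 60 min and 0.577 and 0.314 at 120 min, against 3.09 and 1.60 in the dark, and the steps gave 76 and 13 reads at 120 min, against 460 and 74 in the dark. Its log2 fold change at 120 min was -1.18 (SE 0.34, limma adjusted p = 0.21, and 0.026 with the block), and the blocked fit called it lowered at all 4 times. Without the 240 min samples and with no block, it was called at 60 and 120 min (limma adjusted p = 0.099 and 0.060).

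**Figure D4:**
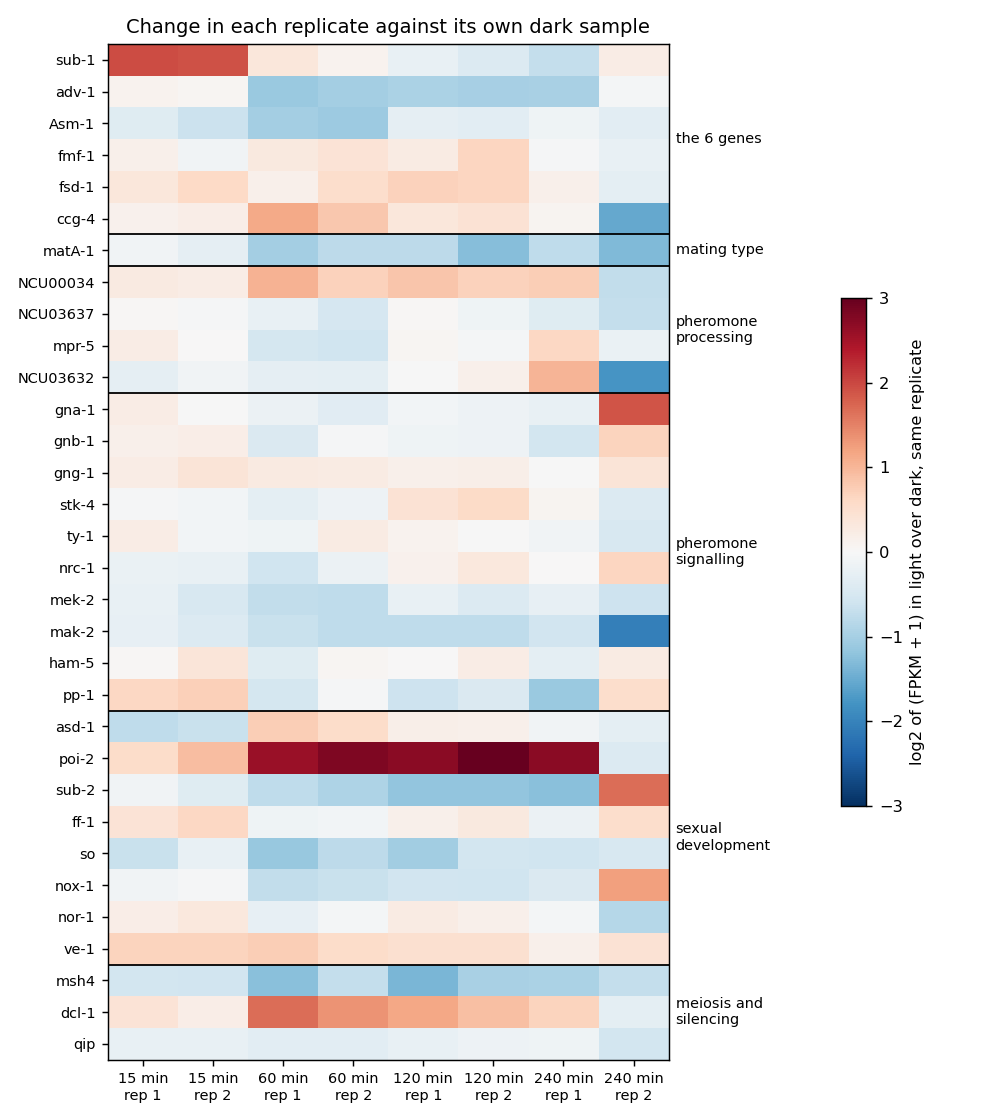
Change of the 6 tested genes (top block) and the 26 expressed pathway genes (lower blocks, by list) in each light sample against the same replicate's own dark sample, as log2 of the ratio of FPKM + 1 (colour, from -3 in blue to 3 in red). Columns are time points with both replicates. *sub-1* is darkest red at 15 min in both replicates. *poi-2* is darker red from 60 min than at 15 min, except in replicate 2 at 240 min. That last column differs from replicate 1 for many genes.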

How the data were processed

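The authors called bases with CASAVA 1.8.2, aligned reads with TopHat2 2.0.5, and deposited FPKM from Cuffdiff, 1 value per gene and sample, with replicates separate. FPKM keep no counts. The worth of 1 read in a sample was taken as the commonest ratio to dark replicate 1 among genes below FPKM 0.15, and reads were given for genes whose 10 values came within 0.05 of whole numbers. Neither the alignment nor the FPKM estimation was repeated, and gene names and overlaps came from RefSeq assembly NC12, not the build of the files, for all 49 loci used.

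Log2(FPKM + 1) was tested with limma 3.58.1 (R 4.3.3), with 1 mean per time point, all 10 samples, eBayes with a variance trend, and genes with a mean FPKM above 1 at 1 or more time points. P-values were adjusted by Benjamini-Hochberg over the 4 comparisons with the dark, or over the 3 of successive light time points, with a threshold of 0.2. The labels tie replicate number to the poly(A) isolation method, so the numbers pair the samples. Deviations from time point means correlated at 0.760 to 0.841 between same-numbered samples up to 120 min, and at 0.334 to 0.412 with 240 min. Log2 fold changes had a median SE of 0.435, and of 0.263 in the blocked fit. The study describes the replicates as biologically independent. No 2 samples had identical values. Alternatives were the block, quantile normalization, median scaling, a pseudocount of 0.1, no filter or a mean FPKM above 2, adjustment within each comparison, and leaving out the 240 min samples or each sample in turn. The block combined with median scaling or without the 240 min samples was added after seeing the data.

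Genes were named by rule: the 8 genes, *vvd* and *al-1*, from each list the most abundant and up to 3 called genes with the largest change, and for each tested gene the 3 most correlated genes with an SD of log2(FPKM + 1) of at least 0.5. The members and lists were chosen with earlier results of these data known. The fit was tested on simulated data. Further steps used Python 3.11.15, pandas 2.3.3, numpy 2.4.6, and matplotlib 3.10.9.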

Additional observations from a re-analysis of the deposited data

How the results depend on the processing

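Of the 6 tested genes, the number called without a block was 1 at 15 min and 0 in the other 6 comparisons. With the replicate block it became 2, 2, and 2 at 15, 60, and 120 min against the dark, and 3, 1, and 2 from 15 to 60, 60 to 120, and 120 to 240 min. Without the 240 min samples it was 2 at 60 min, 1 at 120 min, and 2 from 15 to 60 min, where 34.9%, 32.3%, and 13.8% of all tested genes were called. Adjustment within each comparison changed the number at 60 min, with no share of all genes set beside it. Of the fits chosen after seeing the data, the block without the 240 min samples called 3, 6, and 6 of the 6 genes at 15, 60, and 120 min, and 5 and 4 from 15 to 60 and 60 to 120 min. Of all tested genes, this fit called 61.8%, 79.0%, and 75.5% against the dark, and 69.8% and 56.7% between these successive times. The block with median scaling called more of the 6 genes than the fit without a block, except at 240 min against the dark. No share of all genes was set beside its counts, so they are not given. Leaving out each sample in turn also moved the counts. They are not given, because 1 time point then rests on 1 sample.

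Of the 26 pathway genes, 0, 1, 0, and 0 were called at 15, 60, 120, and 240 min. With the replicate block it was 5, 8, 7, and 5, where 15.2%, 36.5%, 31.2%, and 20.1% of all tested genes were called. Without the 240 min samples it was 2, 8, and 8 at 15, 60, and 120 min, and 17, 22, and 18 with the block as well. Of all tested genes, these fits called 15.6%, 34.9%, and 32.3%, and 61.8%, 79.0%, and 75.5% with the block. For the settings that follow, no share of all genes was set beside the counts. These counts therefore cannot show whether the pathway genes were called more often than other genes. Where 1 sample was left out, 1 time point also rested on 1 sample. Median scaling gave 5, 2, and 1 at 60, 120, and 240 min, and 3, 9, 8, and 4 at the 4 times with the block. Quantile normalization gave 0 and 2 at 60 and 120 min, and adjustment within each comparison 3 and 2. Leaving out each sample gave 0 to 2, 0 to 9, 0 to 8, and 0 to 10.

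The log2 fold changes that turned in sign had no call in the fit where they turned. Those of *fsd-1* at 240 min were 0.0618 with median scaling (without and with the block) and 0.0650 with quantile normalization. *fmf-1* at 15 min was -0.0212 with a pseudocount of 0.1, and *ccg-4* at 15 min was -0.0440 with quantile normalization. With 1 sample left out, the ranges that crossed 0 were -0.72 to 0.22 for *sub-1* at 240 min, -0.60 to 0.033 and -0.61 to 0.16 for *Asm-1* at 120 and 240 min, -0.42 to 0.45 and -0.52 to 0.26 for *fmf-1* at 15 and 240 min, -0.62 to 0.50 for *fsd-1* at 240 min, and -0.49 to 0.81 and -0.29 to 1.05 for *ccg-4* at 15 and 120 min. The cause of these changes was not tested. Depth limits *fmf-1* (5 to 28 reads), *pre-1* (7 to 16), and *pre-2* (0 to 4) in replicate 2.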
